A study of Bos taurus and Bos indicus with 6 samples.

Results

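The proteins of the cytosolic ribosome were followed at the RNA level in leukocytes from the blood of cattle of 2 breeds, Brahman and Holstein, that were both under heavy tick infestation. Members were all genes with a symbol made of RPL, RPS or RPLP and a number, or RPSA, on a bovine Affymetrix array, with the S6 kinases (RPS6K) left out. This gave 69 genes of the 9155 that the array names by a single symbol. Each gene was read on its brightest probe set, the one with the highest mean over the 6 arrays. Of the 69 genes, 63 carry symbols of core ribosomal proteins, 23 of the small and 40 of the large subunit, 1 of them (RPL15P) a pseudogene symbol in RefSeq. The other 6 are listed as paralogs or binding proteins that share the naming pattern. Among them RPS4Y1, with the RefSeq synonym RPS4, may be a core gene, and this was not tested.

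RNA came from 3 Brahman animals, annotated as Bos indicus, and 3 Holstein-Friesian animals, annotated as Bos taurus. All 6 were female, 6 months old and sampled during successive heavy challenges with the cattle tick Rhipicephalus microplus. After lysis of the red cells in jugular blood, the pellet of all white cells was extracted without sorting or culture, so each value averages over all leukocyte types. Animals without ticks were not analysed here, so a breed difference that exists without infestation is part of every value.

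A ribosome reads messenger RNA in its small subunit and joins amino acids in its large subunit. Most of its proteins are made in matched amounts, from messenger RNAs that begin with a terminal oligopyrimidine (TOP) motif. The mTOR kinase, with the RNA-binding protein LARP1, sets how much these messages are translated, which lets growth signals change ribosome output with little change in the RNA itself. Resting lymphocytes hold a large pool of TOP messages that is loaded onto ribosomes when the cells are activated.

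Values are log2 expression after RMA, the authors' background correction, quantile normalisation and probe summary, and array medians lay between 6.54 and 6.61. All differences are Brahman minus Holstein on that scale, tested with limma over 24016 probe sets and called at a Benjamini-Hochberg adjusted p under 0.05. The hybridisation spike-ins averaged 9.64, 9.71 and 9.80 on the Brahman arrays and 9.94, 10.38 and 10.10 on the Holstein arrays. The 3′ minus 5′ difference of the actin control probes was 1.68 ± 0.04 in Brahman and 1.86 ± 0.13 in Holstein (SD, n = 3 each). The spike-in and actin values did not overlap between the breeds. The same 3′ minus 5′ difference did overlap for the gapd, cyph, eIF-4E and ef1a control probes. Their means in Brahman and Holstein were -0.098 and 0.049 for gapd and 1.10 and 1.23 for cyph. For eIF-4E they were 1.83 and 1.97, and for ef1a, which went the other way, -2.46 and -2.57. With the spike-in level added to the model, 12 of 41 named genes had a difference of the other sign, among them RPLP2, RPL31, RPL27, RPL36A and RPL26L1. Since the spike-in level did not overlap between the breeds, this model cannot fully separate it from breed. Differences from this model, here and below, are therefore not corrected breed differences. Where a difference shrank or turned, the change cannot be assigned to breed or to spike-in level. The part of the controls in the results was not tested.

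The measured levels of the cytosolic ribosomal protein transcripts were nearly the same in both breeds. The mean over the 63 core genes was 13.38, 13.36 and 13.36 on the Brahman arrays and 13.32, 13.38 and 13.34 on the Holstein arrays. The Brahman values lie inside the Holstein range. Of the 69 genes, 39 had a higher mean in Brahman and 30 a lower one. The median difference was 0.016, beside 0.023 over all probe sets, and it was -0.012 after the arrays were centred on their medians. For 52 of the 69 genes the breeds differed by less than 0.1.

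None of the 69 genes passed the test: limma called 0, against 33 of all 24016 probe sets, or 0.137%. At an unadjusted p under 0.05, 1 gene was higher in Brahman (RPS9) and 2 were lower (RPS19BP1 and RPL7L1), where 7.12% and 6.47% of all probe sets were. Without overlap between the breeds, 14 genes were higher in Brahman and 9 lower, and the shares over all probe sets were 11.7% and 8.37%. Read on the brightest probe set of each of the 9155 named genes, the shares without overlap were 10.4% higher and 12.2% lower, and those at an unadjusted p under 0.05 were 6.23% and 9.62%.

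The spread of the measured values was narrow. The median absolute difference was 0.051 for the 69 genes and 0.12 for all probe sets. The 95% interval of the measured difference lay within ±0.5 for all 63 core genes and for 66 of the 69, with a median margin of 0.20 on either side. The furthest bound of a core gene was 0.495, for RPL37. For core genes the median SE was 0.086 and the median SD within breeds 0.055. Limma's SE borrows spread from all other probe sets, so these margins and the p-values rest partly on that spread. RPL18, with SDs of 0.014 in Brahman and 0.012 in Holstein, still had an SE of 0.079. At such an SE, the differences of most core genes were too small to reach an unadjusted p under 0.05, however tight their own values. RMA equalises the arrays, so a change of all RNA per cell would not appear, and in mixed leukocytes a change in cell numbers cannot be told apart from one in RNA per cell.

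**Figure D1:**
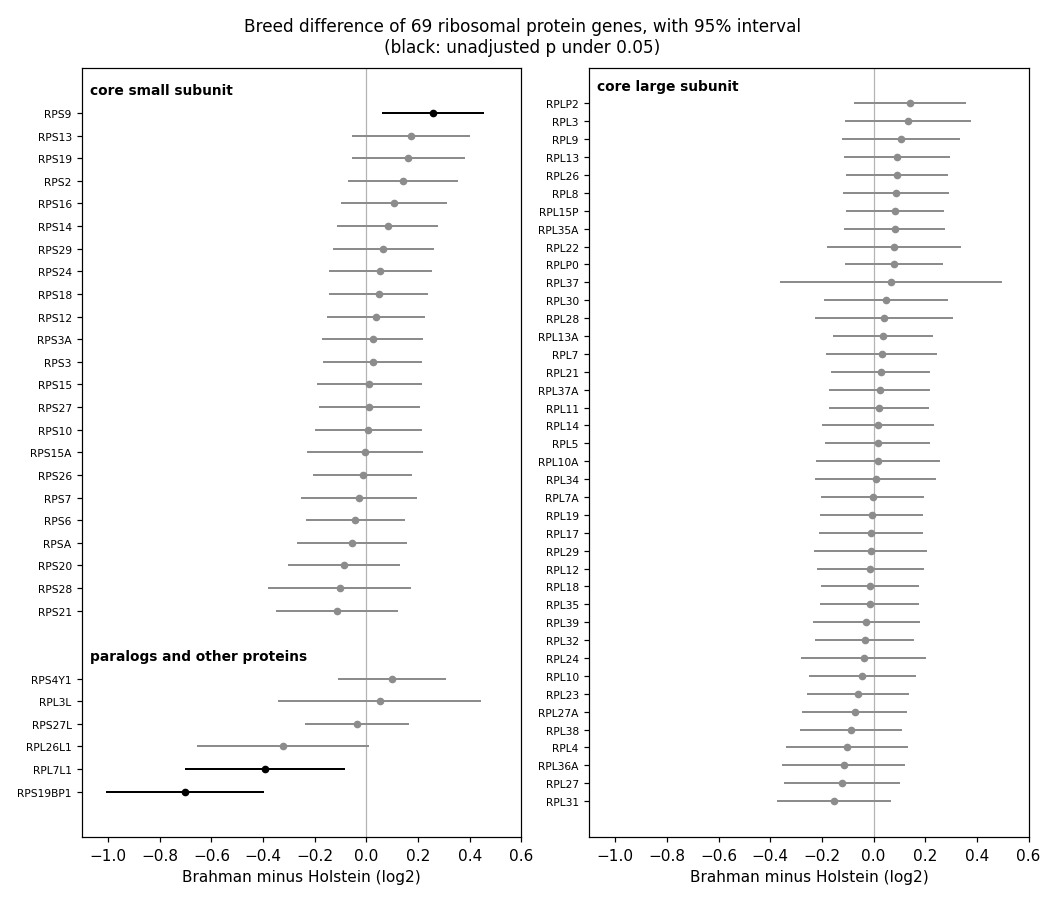
Difference between Brahman and Holstein (horizontal axis, log2, Brahman minus Holstein) of 69 ribosomal protein genes, each a point with its 95% interval from limma. Core genes lie between -0.15 (RPL31) and 0.26 (RPS9), and the 3 black points (RPS9, RPL7L1 and RPS19BP1) have an unadjusted p under 0.05.

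Levels sat near the top of the array's scale. Of the 69 genes, 59 averaged 13 or more, while the highest value in the table was 14.45 and the upper quartile of probe set means was 8.13. Probe sets at this height may be near saturation, which would shrink differences, and this was not tested since scanner intensities were not used here. The intervals above therefore bound the measured difference and not the difference in RNA. The 74 other probe sets at 13 or more had a median absolute difference of 0.058. They had 1 probe set higher and 1 lower in Brahman at an unadjusted p under 0.05, or 1.35% each, and 8.11% higher and 6.76% lower without overlap.

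In the small subunit, 15 of 23 core genes had a higher mean in Brahman and 8 a lower one, with a median of 0.024 and no call by limma. The breeds did not overlap for 7 genes higher in Brahman and 1 lower, where 10.4% and 12.2% of the named genes did not. RPS9 stood furthest from zero among all core genes. It encodes a protein of the subunit body that binds ribosomal RNA early in assembly and lies by the channel where messenger RNA enters. RPS9 read 13.58, 13.47 and 13.50 on the Brahman arrays and 13.24, 13.28 and 13.25 on the Holstein arrays. All 3 Brahman values lie above all 3 Holstein values, and the gap exceeds the range within either breed. The difference was 0.26 (SE 0.083, 95% interval 0.06 to 0.45), a ratio of 1.20, with an unadjusted p of 0.0159 and a limma adjusted p of 0.267. Without Brahman 1 the unadjusted p was 0.0628, and the difference was 0.28 with a p of 0.109 once the spike-in level entered the model.

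RPS2 and RPS3 lie with RPS9 at the messenger RNA entry. RPS2 read 14.17, 14.10 and 14.03 in Brahman and 13.99, 13.88 and 14.00 in Holstein. The breeds did not overlap, and the difference of 0.14 (SE 0.089) had a limma adjusted p of 0.532. RPS3 averaged 14.03 ± 0.01 in Brahman and 14.00 ± 0.03 in Holstein (SD, n = 3 each). RPS3, RPS6, RPS28, RPLP0, RPL12, RPL26, RPL24, RPL5, RPL11 and RPL15P are named here although they lie outside the rule for named genes, and they were chosen after their values were seen.

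RPS13, another protein of the body that binds early in assembly, read 13.66, 13.69 and 13.76 in Brahman and 13.54, 13.41 and 13.64 in Holstein. The breeds were separate by a narrow margin, at a difference of 0.17 (SE 0.096) and a limma adjusted p of 0.481. RPS21, of the same group, had 13.61, 13.44 and 13.44 in Brahman and 13.60, 13.72 and 13.51 in Holstein. These ranges overlap, with a difference of -0.11 (SE 0.10). RPS6, the substrate by which S6 kinase activity is usually measured, was at 13.55, 13.60 and 13.60 in Brahman and 13.61, 13.64 and 13.63 in Holstein. Its 3 Brahman values were the lower ones, yet the difference was only -0.044 (SE 0.080, adjusted p 0.856). Over the 13 genes of the body and platform 7 were higher in Brahman and 6 lower.

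Of the 10 genes of the subunit head, which holds the transfer RNAs against the message, 8 had a higher mean in Brahman and 2 a lower one. Their median was 0.030, close to the 0.023 of all probe sets, and limma called none. RPS16 reaches with its tail toward the transfer RNA in the decoding centre, and it read 13.75, 13.79 and 13.69 in Brahman and 13.70, 13.63 and 13.58 in Holstein. The lowest Brahman value falls just below the highest Holstein value, and the difference was 0.11 (SE 0.086, adjusted p 0.629). RPS19, the gene most often mutated in Diamond-Blackfan anaemia in people, read 6.15, 5.95 and 6.11 in Brahman and 5.90, 5.95 and 5.87 in Holstein. The difference of 0.16 (SE 0.092) had an adjusted p of 0.489 and the ranges touched. The RPS19 probe set sat low on the scale, where a level also depends on how well the probes bind. RPS28 read 10.75, 10.72 and 10.70 in Brahman, against 10.67, 11.05 and 10.75 in Holstein, a difference of -0.10 (SE 0.12) in which Holstein 2 was the high array.

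In the large subunit 22 of 40 core genes had a higher mean in Brahman and 18 a lower one, with a median of 0.016 and differences from -0.15 to 0.14. Limma called 0 of the 40, and 0 had an unadjusted p under 0.05. The breeds did not overlap for 6 genes higher in Brahman and 5 lower, where 10.4% and 12.2% of the named genes did not.

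The stalk is the flexible arm of acidic proteins that recruits elongation factors, and 3 of its 4 genes were measured. RPLP2 read 13.82, 13.74 and 13.74 in Brahman and 13.74, 13.57 and 13.57 in Holstein. The lowest Brahman value stands just above Holstein 1, and the difference was 0.14 (SE 0.092, adjusted p 0.547). RPLP0, the base of the stalk and a common reference gene in PCR, was at 13.91, 13.90 and 13.89 in Brahman and 13.81, 13.83 and 13.82 in Holstein. It separated the breeds with the tight spread of 0.014 in Brahman and 0.0099 in Holstein, at a difference of 0.078 (SE 0.079). Limma's moderated error, which borrows spread from all other probe sets, is larger than that of these values alone, and the adjusted p was 0.715. RPL12, the third stalk gene, differed by -0.012.

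Near the catalytic centre, RPL3 read 13.54, 13.26 and 13.40 in Brahman and 13.19, 13.33 and 13.29 in Holstein. The ranges overlap, and RPL3 had one of the largest spreads within Brahman, 0.14. Its difference was 0.13 (SE 0.10, adjusted p 0.609). RPL36A, which lies by the exit site of the transfer RNA, read 12.15, 12.11 and 12.09 in Brahman, against 12.10, 12.38 and 12.21 in Holstein. The ranges overlap at a difference of -0.12 (SE 0.10).

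At the exit of the polypeptide tunnel, where chaperones and the signal recognition particle dock, 2 of 8 genes had a higher mean in Brahman and 6 a lower one, with a median of -0.013. RPL31 was the lowest core gene relative to Holstein. It read 13.58, 13.48 and 13.64 in Brahman and 13.66, 13.82 and 13.69 in Holstein. Every Brahman value is below every Holstein value by a narrow margin, and the difference was -0.15 (SE 0.093, unadjusted p 0.139, adjusted p 0.517). RPL26 of the same region differed by 0.090 the other way, again without overlap. RPL27, a large subunit protein, read 13.41, 13.35 and 13.44 in Brahman and 13.45, 13.65 and 13.47 in Holstein. The highest Brahman value lies just under the lowest Holstein value, at a difference of -0.12 (SE 0.094). RPL38, which in mice is needed for the translation of Hox messages, read 13.52, 13.45 and 13.41 in Brahman and 13.54, 13.57 and 13.54 in Holstein. Its difference of -0.087 (SE 0.083) had an adjusted p of 0.695.

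RPL5 and RPL11 carry the 5S ribosomal RNA and hold back MDM2 when ribosome assembly fails, which stabilises p53. Both genes differed between the breeds by less than their spread between animals. RPL5 averaged 13.69 ± 0.02 in Brahman and 13.68 ± 0.07 in Holstein, and RPL11 averaged 14.04 ± 0.04 in Brahman and 14.02 ± 0.04 in Holstein (SD, n = 3 each). Over 17 measured genes known from Diamond-Blackfan anaemia, a failure of red cell production in people, 9 had a higher mean in Brahman and 8 a lower one. Their median difference was 0.0066 and limma called 0, with 0 at an unadjusted p under 0.05.

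The 6 arrays differed from each other in small and gene-specific ways. Among core genes, Holstein 2 was the highest of the 6 arrays for 26 of 63 and Holstein 1 the lowest for 24. Against the mean of the other 2 animals of its breed, Holstein 2 was higher by a median of 0.049, and by more than 0.1 for 19 genes, while Holstein 1 was at a median of -0.037. The medians of the 74 other bright probe sets were -0.044 on Holstein 2 and 0.014 on Holstein 1. Holstein 2 also had the highest spike-in level of the 6 arrays, and the part of this in the gene values was not tested. RPS28 and RPL24 stood furthest above the other Holstein arrays on Holstein 2, by 0.34 and 0.25.

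The spread between animals was small. The median SD of a core gene was 0.037 in Brahman and 0.060 in Holstein, and the Holstein SD was the larger for 47 of 63 genes (74.6%). Over all probe sets the Holstein SD was the larger for 63.5%. The tightest genes over all arrays were RPL18, RPL35 and RPL21, with SDs of 0.014, 0.021 and 0.022. RPL18 read 13.97, 13.95 and 13.96 in Brahman and 13.96, 13.98 and 13.98 in Holstein. RPL28 had a wide spread for a bright gene, at 13.38, 13.18 and 13.14 in Brahman and 13.33, 13.05 and 13.19 in Holstein. The widest core gene was RPL37, at 4.79, 5.04 and 5.09 in Brahman and 4.75, 4.65 and 5.30 in Holstein. RPL37 is the only member with a mean under 5.08, the lower quartile of probe set means, so this probe set may hold little more than background.

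**Figure D2:**
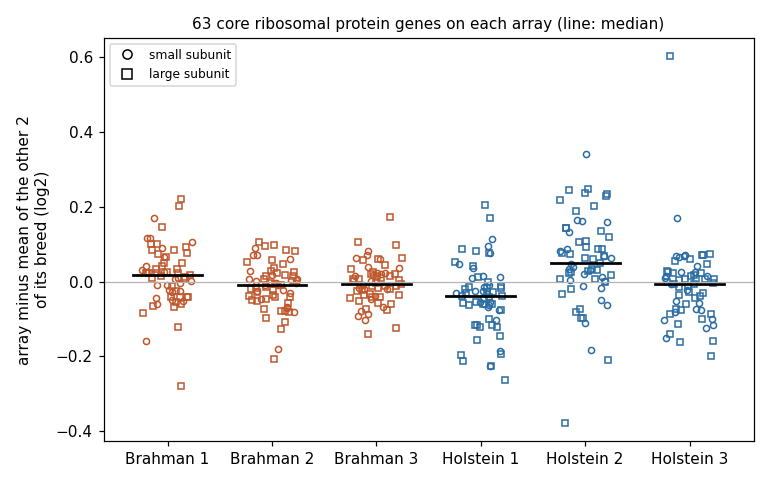
Each of 63 core genes on each array (circles small subunit, squares large subunit; black line median) as its log2 value minus the mean of the other 2 arrays of the same breed. The medians are 0.017, -0.0081 and -0.0062 on the Brahman arrays and -0.037, 0.049 and -0.0053 on the Holstein arrays, and the point at 0.60 on Holstein 3 is RPL37.

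The largest differences among the 69 genes belonged to proteins that are no part of the mature ribosome or are paralogs. These were RPS19BP1, RPL7L1 and RPL26L1, with mean levels of 8.77, 10.07 and 9.35, where the median level of core genes was 13.69. RPS4Y1, as bright as the core genes at 13.66, differed by 0.099. The part of level in this contrast was not tested. Of the 6 genes outside the core, 2 had a higher mean in Brahman and 4 a lower one, with a median of -0.18, and limma called none. With the spike-in covariate the median was -0.033, and RPL3L (-0.54, unadjusted p 0.0136) was the single gene lower at an unadjusted p under 0.05. RPS19BP1 encodes a nucleolar protein that binds RPS19 and is also known as an activator of the deacetylase SIRT1. RPS19BP1 read 8.41, 8.36 and 8.48 in Brahman and 9.10, 9.35 and 8.89 in Holstein. All Brahman values are below all Holstein values, and the gap exceeds the range within Brahman. The difference was -0.70 (SE 0.13, 95% interval -1.003 to -0.40), a ratio of 0.615, with an unadjusted p of 0.000798 and a limma adjusted p of 0.113. Leaving out 1 animal at a time moved the difference between -0.58 and -0.81 and the adjusted p between 0.0684 and 0.287. In the model with a spike-in covariate it was -0.41, at an unadjusted p of 0.0910.

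RPL7L1 encodes a paralog of RPL7 found with precursors of the large subunit. It read 9.76, 9.85 and 10.01 in Brahman and 10.18, 10.51 and 10.11 in Holstein. The breeds did not overlap, and the difference was -0.39 (SE 0.13, unadjusted p 0.0188, limma adjusted p 0.278). With the spike-in covariate, which cannot be fully separated from breed, the difference was -0.0093 (SE 0.17). Without Brahman 1 or Brahman 2 the unadjusted p was 0.0662 or 0.0511. RPL26L1, a close paralog of RPL26, read 9.08, 9.20 and 9.28 in Brahman and 9.43, 9.79 and 9.30 in Holstein. The breeds were just separate, at a difference of -0.32 (SE 0.14, unadjusted p 0.0537, adjusted p 0.376), which was 0.081 with the spike-in covariate and -0.18 without Holstein 2. In these 3 genes Holstein 2 was the highest of the 6 arrays.

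The other 3 were closer between the breeds. RPS27L, a paralog of RPS27 that p53 induces, averaged 10.47 ± 0.07 in Brahman and 10.50 ± 0.01 in Holstein (SD, n = 3 each). RPL3L, a paralog of RPL3 made in heart and skeletal muscle, was dim, at 6.04, 5.92 and 5.82 in Brahman and 6.22, 5.57 and 5.84 in Holstein. The gene listed as RPS4Y1, for which RefSeq gives the synonym RPS4, was bright in these females, at 13.68, 13.71 and 13.74 in Brahman and 13.52, 13.64 and 13.68 in Holstein. Its values did not overlap, at a difference of 0.099 (SE 0.087, adjusted p 0.665).

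**Figure D3:**
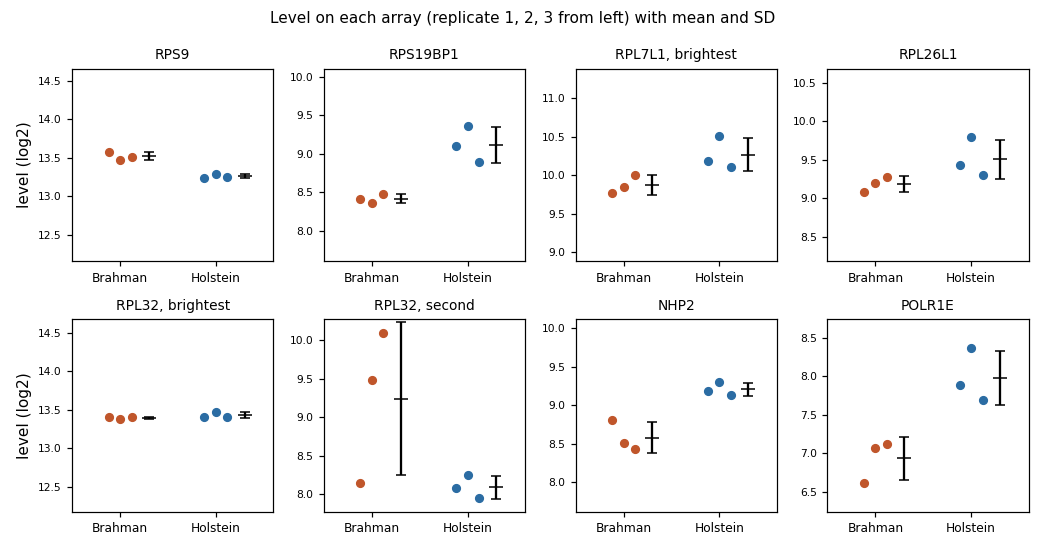
Log2 level on each of the 3 Brahman (orange) and 3 Holstein (blue) arrays for 8 probe sets, with mean and SD beside the points; every panel spans the same log2 range. The Brahman points of RPS9 lie above the Holstein ones, those of RPS19BP1, RPL7L1, RPL26L1, NHP2 and POLR1E lie below, and the second probe set of RPL32 has its spread within Brahman.

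Some genes were read by more than 1 probe set, and these need not agree. Of the 69 genes, 19 had several probe sets, giving 29 further readings, and for 12 of the 19 the probe sets differed in the sign of the breed difference. Of the 29, 17 were higher in Brahman and 12 lower, with 3 and 0 at an unadjusted p under 0.05 and 0 called by limma. The shares of all probe sets at that p were 7.12% and 6.47%. Most were dimmer, with 23 of 29 below a mean of 9.

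RPL32 showed the widest disagreement. Its brightest probe set read 13.40, 13.38 and 13.41 in Brahman and 13.41, 13.47 and 13.41 in Holstein, a difference of -0.034. A second probe set read 8.15, 9.48 and 10.10 in Brahman and 8.08, 8.25 and 7.95 in Holstein. Brahman 2 and Brahman 3 stand far above every Holstein array, while Brahman 1 lies inside the Holstein range. The difference was 1.15 (SE 0.43, unadjusted p 0.0313, limma adjusted p 0.320), and it was 1.70 without Brahman 1, 0.72 without Brahman 3 and 1.89 with the spike-in covariate. The third probe set of RPL32 differed by 0.069. Which transcript the second probe set reads was not tested.

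The 3 other genes with the most discordant probe sets were RPL7L1, RPL9 and RPS4Y1. The brightest RPL7L1 probe set differed by -0.39 and its other probe sets by 0.38 and 0.15, which were 0.16 and -0.11 without Brahman 2. Without Holstein 1 the last was -0.028. RPL9, a protein by the factor-binding site, differed by 0.11 on its brightest probe set, by 0.44 on one that averaged 7.15 (unadjusted p 0.0446) and by -0.077 on the other. Without Holstein 1 the 7.15 probe set differed by 0.24 (unadjusted p 0.102) and the brightest by 0.035, and with the spike-in covariate the 7.15 probe set differed by 1.08 (unadjusted p 0.00108, limma adjusted p 0.358). RPS4Y1 differed by 0.25 on a dim probe set (unadjusted p 0.0293, or 0.265 with the spike-in covariate) and by -0.025 on another. A direction for any of these genes therefore depends on the probe set read. Ribosomal protein genes have many processed pseudogenes, and the pseudogene symbol RPL15P has 3 probe sets here, so probes may read several loci. Breed and subspecies coincide here, so a base difference under a probe and a difference in RNA level cannot be told apart.

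**Figure D4:**
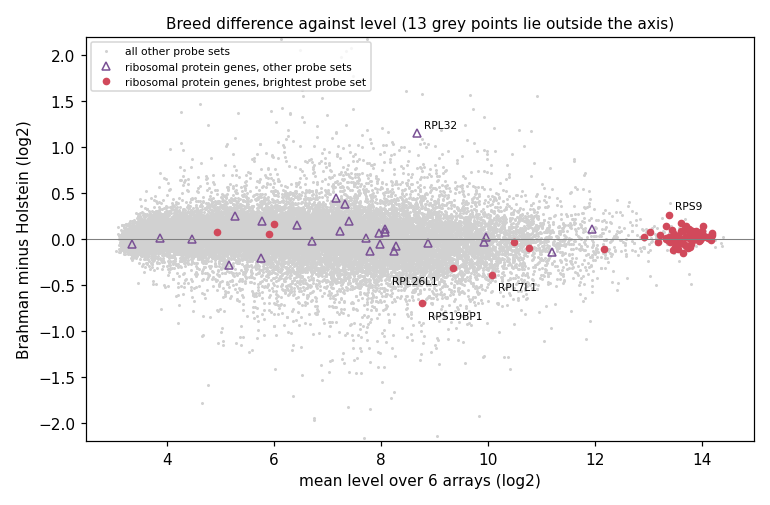
Breed difference (vertical axis, log2, Brahman minus Holstein) against mean level over 6 arrays (horizontal axis, log2) for 24016 probe sets, with 13 grey points outside ±2.2. The brightest probe sets of the 69 genes (red) mostly lie at 13 or more and near zero, and their other probe sets (open triangles) spread below, with RPL32 at 1.15.

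The genes that work beside the ribosomal proteins were read from lists chosen by function. Of the ribosomal proteins with other names, RACK1, a signalling scaffold on the small subunit, differed by -0.00051 (SE 0.084) and FAU, whose product is cleaved to RPS30, by -0.13 (SE 0.091). Of 9 elongation and termination genes, 3 had a higher mean in Brahman and 6 a lower one, with a median of -0.047. At an unadjusted p under 0.05, 0 were higher and 1 lower, where 6.23% and 9.62% of the named genes were. With the spike-in covariate the median was -0.11 and both counts were 0. ETF1, the release factor that reads stop codons, averaged 8.22 ± 0.16 in Brahman and 8.59 ± 0.14 in Holstein (SD, n = 3 each), a difference of -0.37 with an unadjusted p of 0.0169 and a limma adjusted p of 0.271. EEF1G, a subunit of elongation factor 1, differed by 0.23 (adjusted p 0.410) and EEF2, the translocase, by 0.15 (adjusted p 0.673), and with the spike-in covariate these were -0.029 and -0.21. EEF1E1, a component of the transfer RNA synthetase complex, differed by -0.29 (adjusted p 0.437).

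Other TOP messages share the regulation of ribosomal protein messages. The list holds 19 measured genes, of which EEF1A1, EEF1B2, EEF1D, EEF1G and EEF2 were also counted among the elongation genes above. Of the 19, 8 had a higher mean in Brahman and 11 a lower one. The median was -0.017, and 0.0069 after a second quantile normalisation. At an unadjusted p under 0.05, 0 were higher and 2 lower, where 6.23% and 9.62% of the named genes were. With the spike-in covariate the counts were 0 and 1. EIF3L, an initiation factor subunit, read 10.09, 10.17 and 10.10 in Brahman and 10.47, 10.44 and 10.38 in Holstein. COX7C, a subunit of respiratory complex IV, read 11.11, 11.13 and 11.07 in Brahman and 11.42, 11.47 and 11.32 in Holstein. Neither overlapped between the breeds, at differences of -0.31 and -0.30 and limma adjusted p-values of 0.208 and 0.234.

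The genes for building ribosomes spanned differences from -1.05 to 0.57. Of 46 biogenesis genes, 19 had a higher mean in Brahman and 27 a lower one, with 0 called. At an unadjusted p under 0.05, 1 was higher and 7 lower, where 6.23% and 9.62% of the named genes were. The median was -0.065, and -0.0064 without Holstein 2. With the spike-in covariate the median was 0.078 and the counts turned to 4 higher and 1 lower. Over all 24016 probe sets that model gave 1338 higher and 1062 lower. POLR1E, a subunit of RNA polymerase I, which transcribes ribosomal RNA, read 6.61, 7.06 and 7.12 in Brahman and 7.89, 8.37 and 7.69 in Holstein. NHP2, a protein of the particles that convert uridine to pseudouridine in ribosomal RNA and of telomerase, read 8.80, 8.50 and 8.43 in Brahman and 9.18, 9.30 and 9.14 in Holstein. Every Brahman value lies below every Holstein value for both genes. The difference was -1.05 for POLR1E (SE 0.21, limma adjusted p 0.123), or -0.44 with the spike-in covariate, and -0.63 for NHP2 (SE 0.12, adjusted p 0.120). UTP6, of the small subunit processome, differed by 0.57 (adjusted p 0.316) and TAF1B, a factor that recruits RNA polymerase I, by 0.45 (adjusted p 0.396), both with overlapping ranges.

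Of 22 genes of the mTOR pathway, 8 had a higher mean in Brahman and 14 a lower one, with a median of -0.042 that was 0.013 without Brahman 2. At an unadjusted p under 0.05, 0 were higher and 3 lower, where 6.23% and 9.62% of the named genes were, and limma called 0. With the spike-in covariate the median was -0.020, with 2 higher and 1 lower, where 1338 and 1062 of all 24016 probe sets were. RPS6KB2, the second S6 kinase gene, read 7.75, 7.58 and 7.66 in Brahman and 8.41, 8.03 and 7.95 in Holstein, a difference of -0.47 (limma adjusted p 0.229) without overlap. Its paralog RPS6KB1 differed by 0.13 (adjusted p 0.637). LAMTOR3, part of the complex that anchors mTOR to the lysosome, differed by -0.44 (adjusted p 0.281). The other gene lower at an unadjusted p under 0.05 was DDIT4, an inhibitor of mTOR, at -0.50 (limma adjusted p 0.365) with overlapping ranges. It lies outside the rule for named genes and was chosen after its values were seen. The list mixes activators and inhibitors, so its counts give no direction of pathway activity. The TOP messages respond to mTOR in their translation, which RNA levels do not measure.

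The ribosome of the mitochondrion is built from proteins of its own. Of 67 measured genes for mitochondrial ribosomal proteins (symbols MRPL or MRPS), 7 had a higher mean in Brahman and 60 a lower one, with a median of -0.24. At an unadjusted p under 0.05, 1 was higher and 29 lower, where 6.23% and 9.62% of the named genes were, and limma called 0. With the spike-in covariate the median was -0.13, with 1 higher and 6 lower, where 1338 and 1062 of all 24016 probe sets were. These settings were run on this list after its values were seen. Leaving out 1 array gave medians from -0.28 to -0.21 and 16 to 26 lower, with 16 without Brahman 2, Brahman 3 or Holstein 2. Over all 24016 probe sets, leaving out 1 array gave 1160 to 1873 lower. The mean level of the mitochondrial genes was 8.41, 8.38 and 8.36 on the Brahman arrays and 8.59, 8.73 and 8.55 on the Holstein arrays. The breeds did not overlap and Holstein 2 was highest, as for the spike-ins. The cytosolic set overlapped, as given above. These genes lay in the middle of the array's scale, with a median level of 8.44, and the cytosolic genes at its top. The difference between the sets was not tested.

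**Figure D5:**
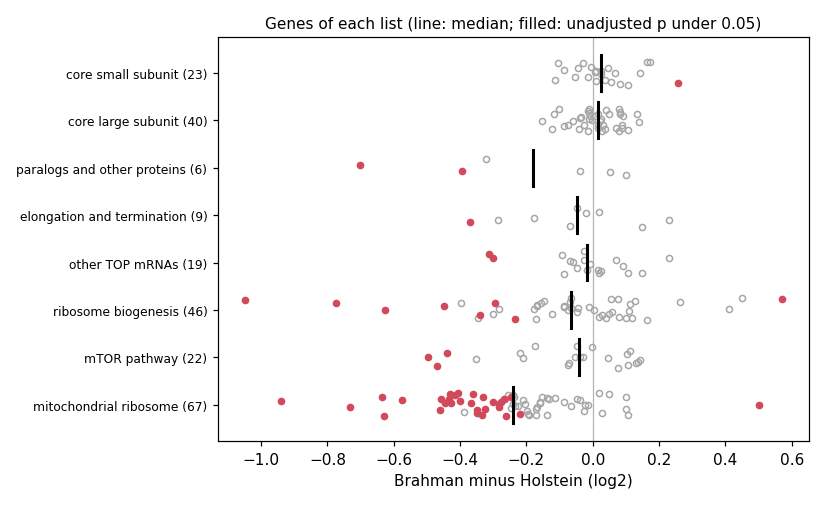
Difference of each gene (horizontal axis, log2, Brahman minus Holstein) in 8 lists with the number measured in brackets; the black line is the list's median and filled points have an unadjusted p under 0.05. The core subunits gather at medians of 0.024 and 0.016, and the mitochondrial ribosome at -0.24.

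Marker genes of blood cell types were read to describe the white cell mix. Of 10 T cell markers 9 had a higher mean in Brahman. Of these, 6 had an unadjusted p under 0.05, where 6.23% of the named genes were higher at that p. Their mean level was 9.88, 9.68 and 9.91 in Brahman and 9.42, 9.42 and 9.54 in Holstein. Monocyte markers averaged 8.40 ± 0.13 in Brahman and 8.56 ± 0.23 in Holstein, over 5 genes with 2 higher and 3 lower. Neutrophil markers averaged 10.21 ± 0.26 in Brahman and 10.14 ± 0.22 in Holstein, over 6 genes with 3 higher and 3 lower (SD, n = 3 each). B cell markers, over 3 genes with 1 higher and 2 lower, averaged 11.13, 11.25 and 11.09 in Brahman and 10.97, 10.83 and 11.07 in Holstein. Natural killer cell markers, over 6 genes with 5 higher and 1 lower and GZMB, a cytotoxic granule protease, called by limma, averaged 9.02, 8.35 and 8.64 in Brahman and 8.30, 8.19 and 8.03 in Holstein. Erythroid markers averaged 5.96 ± 0.06 in Brahman and 6.03 ± 0.21 in Holstein over 6 genes, and platelet markers averaged 8.33 ± 0.24 in Brahman and 8.44 ± 0.22 in Holstein over 3 (SD, n = 3 each). The single eosinophil marker measured averaged 9.81 ± 0.42 in Brahman and 9.74 ± 0.79 in Holstein. The array means of the T cell, B cell and natural killer lists did not overlap between the breeds. In the B cell list BLK, a kinase, differed by 0.97 while MS4A1 and CD79A differed by -0.14 and -0.23, and in the natural killer list GZMB differed by 2.51 at a list median of 0.091. The monocyte and neutrophil means also average over opposite differences. CD14 differed by -0.94 and VCAN by 0.92, both without overlap. ALPL differed by 1.42 without overlap, and FCGR3A by -0.78 with overlap. The marker genes named here were chosen after their values were seen. The part of cell makeup in the ribosomal protein values was not tested.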

How the data were processed

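The authors deposited log2 values, 1 for each probe set on each array. Per the submitters' processing notes they come from RMA, of a version not given in the sources used here. Of 24128 probe sets, 112 array controls were left out and 24016 tested. Gene names came from the platform annotation, with 13292 probe sets naming 1 gene, 86 several and 10638 none. All 69 members matched RefSeq by Entrez identifier and 0 symbols differed. RefSeq lists 85 protein-coding symbols of this pattern, and 17 of them were not analysed here. Coordinates and sequences were not used here.

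Breeds were compared with limma 3.58.1 in R 4.3.3 (lmFit, eBayes, breed as the only term, 2-sided), adjusted by Benjamini-Hochberg over all 24016 probe sets, and the steps were tested on simulated data. Replicates are different animals, and their number, 3 per breed, limits the precision. Array correlations of 0.982 to 0.991 gave no sign of a duplicated array. The members, gene lists and tests were chosen with earlier results of these data known. Named genes were the 8 members of smallest p in each direction, the 3 of largest SD in each breed, the 3 of smallest SD over all arrays, the paralogs, the 4 genes of most discordant probe sets and, per companion list, the 2 of smallest p in each direction. Alternatives covered scaling, dim probe sets, the prior, array weights, a replicate block, each array left out, the spike-in covariate and the choice of probe set.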

Additional observations from a re-analysis of the deposited data

How the results depend on the processing

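Limma called 0 of the 69 genes under every alternative run. The median difference, 0.016, was -0.012 with arrays centred on their medians and 0.065 with a spike-in covariate, and between -0.0058 and 0.030 when 1 array was left out. At an unadjusted p under 0.05, the count higher in Brahman was 0 to 1 and the count lower was 1 to 3 with 1 array left out. These counts were 0 higher and 1 lower with the spike-in covariate, 2 higher and 1 lower with a gene's probe sets averaged, and 1 higher and 0 lower over the core genes alone, which leaves out the paralogs by construction. For the other values the cause was not tested. Over 41 named genes the alternatives gave 563 values, of which 22 had the other sign, 12 of them with the spike-in covariate, and none of these genes had a call to lose. The sample titles do not say that replicate numbers pair the animals. As deviations from the breed means, same-numbered arrays correlated at 0.11, -0.043 and -0.074, and other pairs reached 0.12. With 3 arrays per breed these values cannot decide whether animals were paired. The replicate block gave 0 called, 1 higher, 2 lower and a median of 0.016. It changed no other call of a member, and over all probe sets it gave 10 calls in place of 33. With 1 array left out, limma called 5 to 55 of all probe sets. With the spike-in covariate it called 0 of all 24016, so a call of a member was not possible in that setting. That covariate cannot be fully separated from breed, so changes of sign under it cannot be assigned to either.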
